A study of Mus musculus with 5 samples.

Results

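Expression of 10 genes of the circadian clock was followed in inguinal white adipose tissue, which lies under the skin of the mouse. These genes were taken by name, 10 of the 55845 genes listed in either of the deposited tables, and each was found once in both tables. They are the activator gene Clock, the REV-ERB repressor genes Nr1d1 and Nr1d2, the output factor genes Dbp, Tef and Hlf, and the repressor genes Per1, Per2, Per3 and Cry1.

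The series holds 5 libraries in 5 groups, and 4 of them entered the comparisons. Floxed (Veh) came from floxed mice injected with PBS, Floxed (T3) from floxed mice injected with T3 (triiodothyronine, the active thyroid hormone), and the labelled ATRβKO (T3) library from mice of that genotype injected with T3. By the title of the series, the mutated gene encodes the thyroid hormone receptor β of adipocytes. The injections were daily over 7 days on normal food, with tissue collected 24 hours after the final injection. Each of these 3 libraries was made from the pooled fat of 3 mice, and their values share 1 deposited table, called the T3 table here. Floxed (HFD) came from floxed mice fed a high-fat diet for 2 to 3 months, and whether it was pooled is not given in the sources used here. All mice were kept under 12 hours of light and 12 hours of dark. The driver of recombination, the sex and age of the mice and the hour of tissue collection are not given in the sources used here.

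The clock is a loop of transcription and repression that runs in nearly every cell. CLOCK pairs with BMAL1 (gene Arntl) and binds E-box sequences, which turns on the Per, Cry, Nr1d and Dbp genes. PER and CRY proteins then block the CLOCK and BMAL1 pair, and the REV-ERB proteins repress Arntl and its relatives. DBP, TEF and HLF bind D-box sequences and carry the rhythm to other genes, Per genes among them. In adipose tissue, as in liver, transcripts of Dbp, the Per genes and the Nr1d genes swing strongly over the day, and those of Arntl and Npas2 peak in the opposite part of it. The hour of collection alone can therefore change the level of such genes. With 1 pool per group, an effect of hour and an effect of treatment or genotype cannot be told apart.

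Promoter windows of 250 bases before the RefSeq start were searched for the sequences through which these factors are known to act. RefSeq (build GRCm38.p6, which is not the build of the deposited values) held windows for 9 of the 10 genes, 13 windows in all, and Per2 was not among them. The E-box was searched as CACGTG, its variant as CACGTT, the D-box as TTATGTAA, TTACGTAA or TTATATAA, the half-site shared by REV-ERB and thyroid hormone receptors as AGGTCA, its direct repeat as AGGTCA and a second AGGTCA with NNNN between them, and the cAMP element as TGACGTCA, each on both strands. No motif of this set contains another, apart from the half-site inside its own direct repeat. Windows of 5 genes are shown, those of the 4 genes called lower below on the deposited values and that of Cry1, which was not called. They were chosen by these levels, so they cannot relate motifs to differences. Capitals mark the motif matches, and sequences run 5′ to 3′ on the strand of the gene.
Per1 (chr11:69098699-69098948, plus strand): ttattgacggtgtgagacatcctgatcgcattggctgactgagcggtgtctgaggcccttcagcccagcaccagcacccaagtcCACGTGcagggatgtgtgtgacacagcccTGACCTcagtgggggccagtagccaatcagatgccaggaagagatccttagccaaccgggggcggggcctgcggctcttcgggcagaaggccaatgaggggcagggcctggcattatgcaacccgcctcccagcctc
Cry1 (chr10:85185055-85185304, minus strand): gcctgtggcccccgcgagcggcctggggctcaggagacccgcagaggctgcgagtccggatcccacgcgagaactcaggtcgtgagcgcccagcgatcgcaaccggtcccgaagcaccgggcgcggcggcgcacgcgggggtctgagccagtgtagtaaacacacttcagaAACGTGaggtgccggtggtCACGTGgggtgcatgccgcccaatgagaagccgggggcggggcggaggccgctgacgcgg
Per3 (chr4:151044666-151044915, minus strand): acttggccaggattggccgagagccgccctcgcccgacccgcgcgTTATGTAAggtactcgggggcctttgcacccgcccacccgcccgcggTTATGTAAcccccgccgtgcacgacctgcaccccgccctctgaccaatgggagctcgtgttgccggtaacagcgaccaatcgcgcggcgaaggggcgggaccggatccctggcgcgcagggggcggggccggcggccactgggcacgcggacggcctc
Hlf (chr11:90390918-90391167, minus strand): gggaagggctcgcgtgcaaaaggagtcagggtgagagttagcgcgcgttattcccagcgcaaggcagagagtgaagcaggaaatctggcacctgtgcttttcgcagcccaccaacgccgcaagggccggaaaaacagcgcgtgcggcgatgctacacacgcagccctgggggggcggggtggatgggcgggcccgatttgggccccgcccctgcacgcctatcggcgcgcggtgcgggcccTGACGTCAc
Dbp (chr7:45704997-45705246, plus strand): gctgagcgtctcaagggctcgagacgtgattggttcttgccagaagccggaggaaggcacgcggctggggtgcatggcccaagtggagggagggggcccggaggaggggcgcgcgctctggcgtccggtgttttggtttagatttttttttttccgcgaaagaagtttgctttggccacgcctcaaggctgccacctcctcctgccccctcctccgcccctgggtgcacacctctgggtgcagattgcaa

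The Per1 window shown, 1 of 2 for that gene, held an E-box 166 bases before the start and a half-site 137 bases before it, and the other window held none of the motifs. The Cry1 window held an E-box at 60 bases and the E-box variant at 79 bases. The Per3 window held the D-box in 2 places, at 205 and 158 bases, and the Hlf window the cAMP element at 9 bases. The Dbp window held none of the motifs. Among windows not shown, both of Tef held an E-box, that of Nr1d1 the E-box variant, and that of Nr1d2 and 1 of the 3 of Clock a half-site. An E-box stood in 4 of the 13 windows, from 3 genes, against 6.02% of 32851 RefSeq windows of the same length, and a D-box in 1 of 13, against 1.43%. A half-site stood in 3 of 13, against 14.0%, and its direct repeat in none, against 0.0152%. The cAMP element stood in 1 of 13, against 1.55%, and the E-box variant in 2 of 13, against 3.85%. A match describes the letters of the window only.

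The output factor genes encode closely related activators of D-box genes. Values are in FPKM, fragments scaled to transcript length and library total, and are given in the order Floxed (Veh), Floxed (T3), labelled ATRβKO (T3) and Floxed (HFD). The last value comes from a table that may have been normalized separately, so it is set beside the others with no ratio. Dbp, the most abundant of the 10 genes in Floxed (Veh), was at 116, 53.8, 85.6 and 69.5 FPKM. Tef was at 72.7, 41.0, 67.7 and 74.4 FPKM. Hlf, the least abundant of the 3, was at 9.58, 3.81, 8.31 and 2.99 FPKM. Floxed (T3) was the lowest library of the T3 table for each of the 3, and the labelled ATRβKO (T3) library lay between it and Floxed (Veh). Hlf was lower still in Floxed (HFD), where Tef was close to its level in Floxed (Veh).

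The Per genes encode repressors of the CLOCK and BMAL1 pair, and Per1 and Per2 are also induced directly by hormonal and nervous signals. Per1 was at 28.9, 13.0, 25.4 and 23.2 FPKM. Per2 was at 8.36, 4.24, 7.45 and 9.60 FPKM. Per3 was at 26.2, 11.35, 19.8 and 16.65 FPKM. The 3 genes had the same order in the T3 table, with Floxed (T3) lowest, Floxed (Veh) highest and the labelled ATRβKO (T3) library nearer to Floxed (Veh). Cry1, which encodes the partner of PER in repression and has its peak later than the Per genes, stood at 4.37, 3.68, 4.06 and 3.59 FPKM, a narrow range.

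The patterns of both REV-ERB genes differed. Nr1d1 was at 102, 89.1, 80.6 and 82.2 FPKM, and Nr1d2 at 43.0, 27.2, 38.6 and 21.8 FPKM. Nr1d1 was lowest in the labelled ATRβKO (T3) library and Nr1d2 in Floxed (HFD). Clock was at 6.52, 7.71, 6.65 and 7.10 FPKM. It was the only gene of the 10 whose highest value in the T3 table was in Floxed (T3). Across the 10 genes the median level was 27.6, 12.2, 22.6 and 19.2 FPKM in the 4 libraries.

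**Figure D1:**
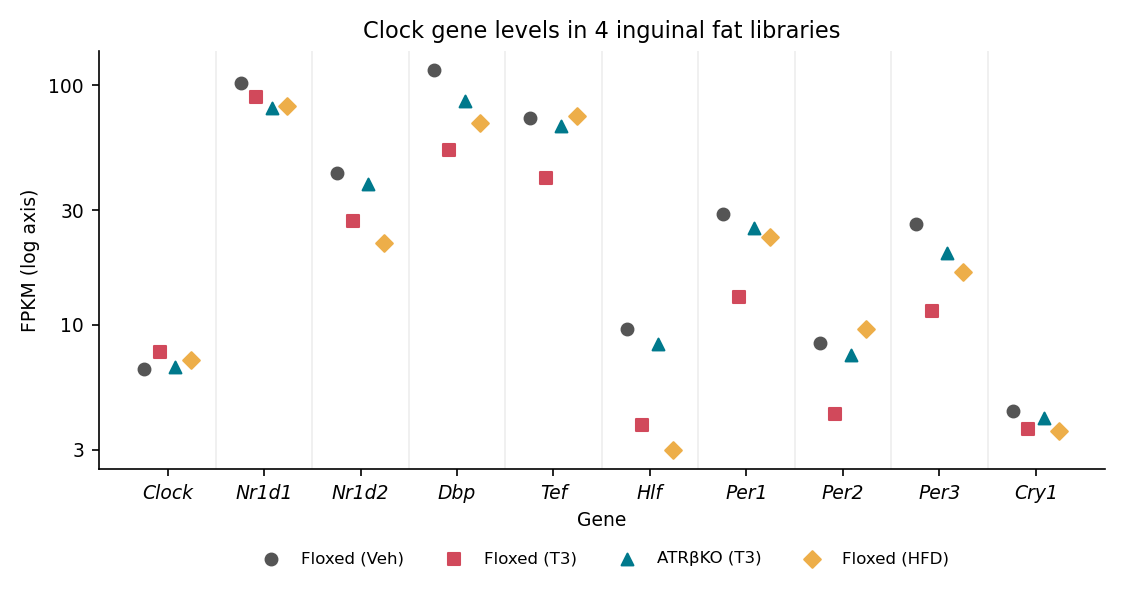
Levels of the 10 clock genes (horizontal axis) in FPKM on a log axis, 1 point per library. Floxed (T3) is the lowest of the 3 libraries of the T3 table for 8 genes, the exceptions being Clock and Nr1d1, and the spread on this axis is widest for Hlf, from 2.99 to 9.58 FPKM.

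The first comparison set Floxed (T3) against Floxed (Veh). Each group is a single library, so spread between animals is unknown and no test or p-value is given. A gene was called by its size of difference, a log2 ratio (of FPKM plus 1) of at least 1 in either direction, provided that the larger of both values was 1 FPKM or above. By this rule 4 of the 10 genes were lower, which were Per3, Hlf, Dbp and Per1, against 3.98% of 15031 genes. None was higher, against 2.3%. Their log2 ratios lay between -1.14 for Per3 and -1.09 for Per1 and Dbp, and in plain FPKM their levels were 2.16 to 2.51 times higher in Floxed (Veh). Per2 (log2 ratio -0.84), Tef (-0.81) and Nr1d2 (-0.64) were short of 2-fold and past 1.5-fold, which makes 7 of 10 lower at 1.5-fold, against 14.0% of all genes. Cry1 (-0.20) and Nr1d1 (-0.19) lay close to the median of all genes, which was -0.21, and Clock was at 0.21. The median of the 10 genes was -0.82.

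The call at 2-fold depended on the scaling of the libraries. With the libraries rescaled to a median log2 ratio of 0 over all genes, which shifts every value by 0.21, none of the 10 genes was called, against 2.36% of all genes lower. Per3, Hlf, Dbp and Per1 then lay just short of 2-fold, at -0.94, -0.93, -0.89 and -0.89. The median of the 10 genes was -0.62, and 7 stayed below 0 while Nr1d1, Cry1 and Clock were above it. Depth is not stated, and the approximate number of fragments behind a value was taken from the steps in the values of single-exon genes. These fell at 0.076 and at 0.132 to 0.14 FPKM times kilobase in the T3 table, so the worth of 1 fragment was not settled. With the larger step, which gives fewer fragments, Hlf rested on about 386 fragments in Floxed (Veh) and 163 in Floxed (T3), and the ratio of 0.398 had an exact conditional binomial 95% interval of 0.329 to 0.479. For Cry1, at about 94 and 84 fragments, the ratio of 0.842 had an interval of 0.62 to 1.14, so a difference was not detectable at this depth. These intervals cover counting error only, not the spread between animals or pools.

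**Figure D2:**
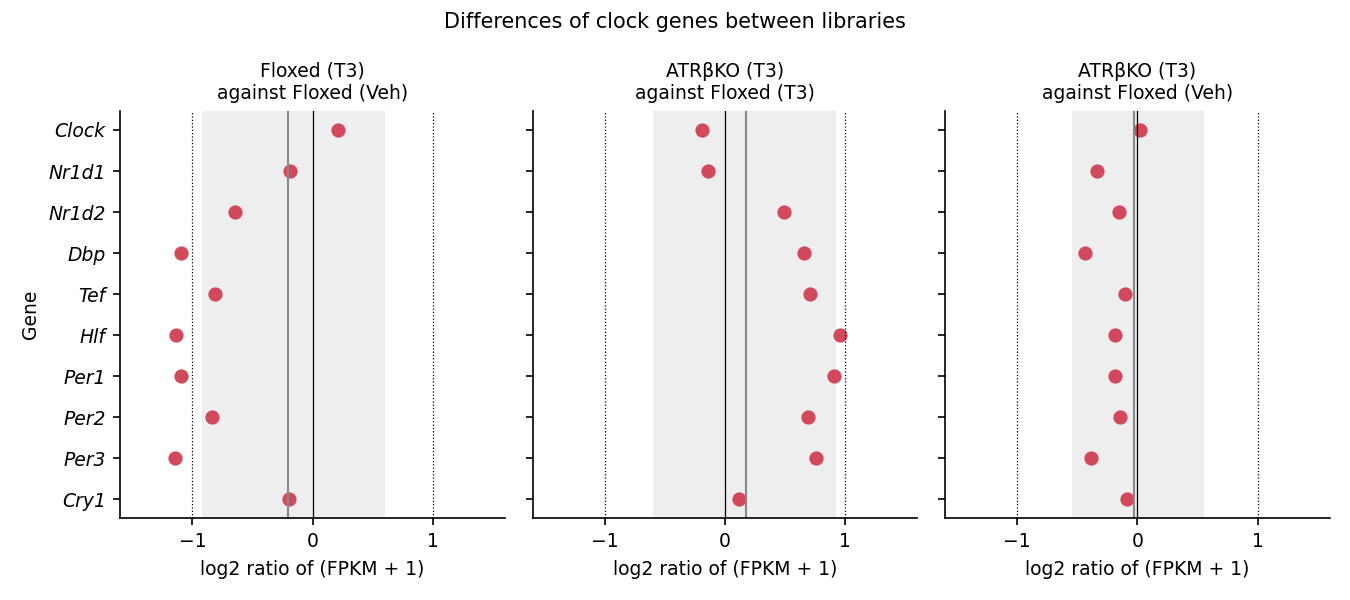
The log2 ratio of FPKM plus 1 (horizontal axis) of each clock gene (vertical axis) in the 3 pairs of libraries of the T3 table. Grey bands hold the middle 90% of all genes, grey lines mark the median of all genes and dotted lines the 2-fold rule. In the first panel Per3, Hlf, Dbp and Per1 lie past the rule on the lower side, and in the last all 10 genes lie within the band of -0.53 to 0.55.

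The second comparison set the labelled ATRβKO (T3) library against Floxed (T3). None of the 10 genes was higher by the 2-fold rule, against 4.04% of 14988 genes, and none was lower, against 2.01%. At 1.5-fold 6 were higher, against 13.4%, and these were Hlf (log2 ratio 0.95), Per1 (0.91), Per3 (0.75), Tef (0.71), Per2 (0.69) and Dbp (0.66). With the median of all genes set to 0, a setting combined with 1.5-fold after the data were seen, 2 were higher, Hlf (0.78) and Per1 (0.73), against 7.89% of all genes. Nr1d2 stood at 0.49 and Cry1 at 0.11, the latter below 0 once the median of all genes was set to 0. Nr1d1 (-0.14) and Clock (-0.19) lay on the other side. The median of the 10 genes was 0.68, and that of all genes 0.18. In plain FPKM, Hlf was 2.18 times and Per1 1.94 times as high in the labelled ATRβKO (T3) library.

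The remaining pair, the labelled ATRβKO (T3) library against Floxed (Veh), shares a library with each of the others, so its values are only set beside them. None of the 10 genes was called higher, against 1.83% of 15175 genes, or lower, against 1.79%, and none passed 1.5-fold, against 4.34% higher and 4.32% lower. Their log2 ratios ran from -0.43 for Dbp to 0.02 for Clock, with a median of -0.17, and that of all genes was -0.03. Dbp was 26.2% lower, Per3 24.4% lower and Nr1d1 20.9% lower in plain FPKM. Within the T3 table Floxed (T3) was the lowest of the 3 libraries for 8 of the 10 genes, but also for 61.8% of 15439 genes. Thrb, the gene of thyroid hormone receptor β, was at 4.44 FPKM in Floxed (Veh), 4.43 in Floxed (T3) and 4.26 in the labelled ATRβKO (T3) library. The tables give 1 value for the whole gene, so a truncated transcript and Thrb of non-adipocytes are included in it, and the label is not checked by it.

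Genes of different phase can be compared inside a library, where the scaling of libraries drops out apart from the pseudocount. The 8 genes driven through E-boxes or D-boxes (Nr1d1, Nr1d2, Dbp, Tef, Hlf, Per1, Per2 and Per3) had a mean log2 of FPKM plus 1 of 5.19 in Floxed (Veh), 4.32 in Floxed (T3), 4.95 in the labelled ATRβKO (T3) library and 4.68 in Floxed (HFD). The 5 genes called opposite here are Arntl, Npas2, Nfil3, Clock and Cry1. They are repressed in whole or part by REV-ERB or peak away from the driven genes. Cry1 is also turned on through E-boxes, and it peaks later than the Per genes. The opposite genes had means of 2.11, 2.17, 1.89 and 2.05. The difference of both means was 3.08 in Floxed (Veh), 2.16 in Floxed (T3), 3.06 in the labelled ATRβKO (T3) library and 2.62 in Floxed (HFD). Floxed (T3) thus stood 0.92 below Floxed (Veh) on the log2 scale. The labelled ATRβKO (T3) library stood within 0.02 of Floxed (Veh), with both of its means lower, 4.95 against 5.19 and 1.89 against 2.11. On the deposited values nearly all of the first distance came from the driven genes, since the opposite genes differed by little. Unlike the distance itself, this split depends on the scaling of the libraries. The ratio of Dbp to Arntl in FPKM was 32.9, 12.4, 31.9 and 22.6 in the 4 libraries, and that of Nr1d1 to Arntl was 28.9, 20.5, 30.1 and 26.8.

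**Figure D3:**
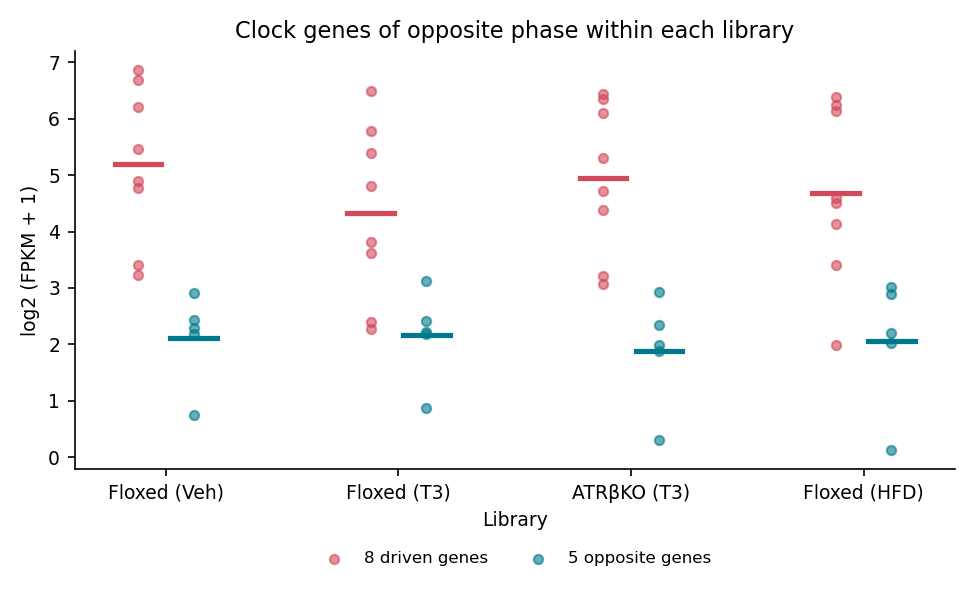
Levels as log2 of FPKM plus 1 (vertical axis) of the 8 driven and the 5 opposite clock genes in each library (horizontal axis), with 1 point per gene and bars at the means. The means lie 3.08 apart in Floxed (Veh), 2.16 in Floxed (T3), 3.06 in the labelled ATRβKO (T3) library and 2.62 in Floxed (HFD).

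Floxed (HFD) had its own order of clock genes. Nr1d2, Hlf and Cry1 were below all 3 libraries of the T3 table, Tef and Per2 were above all 3, and the other 5 lay between them. For Cry1 and Tef these places were near ties. Cry1 was at 3.59 FPKM against 3.68 in Floxed (T3), and Tef at 74.4 against 72.7 in Floxed (Veh). Both can change with scaling, since the tables may have been normalized separately. Within the output family, the level of Tef was 7.59 times that of Hlf in Floxed (Veh), 10.8 times in Floxed (T3), 8.15 times in the labelled ATRβKO (T3) library and 24.9 times in Floxed (HFD). The level of Nr1d1 was 2.37, 3.28, 2.09 and 3.76 times that of Nr1d2 in the same order. Diet and injection differ between these mice and the others, and the hour of collection may, which cannot be told apart here.

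Of 11 other clock genes, 9 reached 1 FPKM in Floxed (Veh) or Floxed (T3), 1 was lower by the size rule and none higher, and their log2 ratios had a median of -0.10. The lower one was Ciart, a repressor of the CLOCK and BMAL1 pair, at 5.80 FPKM in Floxed (Veh), 2.18 in Floxed (T3), 3.25 in the labelled ATRβKO (T3) library and 3.64 in Floxed (HFD). Arntl was at 3.52, 4.34, 2.68 and 3.07 FPKM in that order, and its relative Arntl2 at 4.99, 3.03, 5.94 and 4.25. Npas2, which can replace CLOCK, was under 1 FPKM in every library, at 0.68, 0.83, 0.23 and 0.09. The D-box repressor gene Nfil3 was at 3.90, 3.57, 2.95 and 6.47 FPKM. Cry2, the second cryptochrome gene, was at 21.1, 16.7, 15.3 and 20.75 FPKM.

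The BHLHE40 and BHLHE41 proteins compete with CLOCK and BMAL1 for E-boxes. Bhlhe40 was at 33.8 FPKM in Floxed (Veh), 39.45 in Floxed (T3), 16.5 in the labelled ATRβKO (T3) library and 10.1 in Floxed (HFD). It was lower by the size rule in the labelled ATRβKO (T3) library than in Floxed (T3), with a log2 ratio of -1.21, the only one of the 11 called in that pair. Bhlhe41 was at 7.51, 4.89, 4.39 and 3.67 FPKM. The ROR genes encode activators that use the same sites as REV-ERB. Rora was at 5.03, 5.26, 5.60 and 10.8 FPKM, and Rorb was under 1 FPKM throughout, at 0.20, 0.13, 0.24 and 0.16. Of the activator side, Arntl, Rora and Clock were 1.05 to 1.23 times as high in Floxed (T3) as in Floxed (Veh). Arntl2 went the other way, at 0.607 times. Npas2 and Rorb, both under 1 FPKM, stood at 1.22 and 0.65 times.

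Of 12 genes of clock protein turnover, 11 reached 1 FPKM, 1 was lower with T3 in floxed mice and none higher, and their log2 ratios had a median of -0.24. The lower one was Usp2, which encodes a ubiquitin protease with strong daily rhythm, at 7.05 FPKM in Floxed (Veh), 2.60 in Floxed (T3), 4.18 in the labelled ATRβKO (T3) library and 11.7 in Floxed (HFD). Of 10 clock output genes, 8 reached 1 FPKM, with a median of -0.14. The 1 called higher was Cdkn1a, the gene of a cell cycle inhibitor, at 15.9 FPKM in Floxed (Veh) and 36.65 in Floxed (T3).

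Signals that can set Per1 and other clock genes outside the loop were read from 3 further lists. Of 11 glucocorticoid response genes 1 was lower and 1 higher in Floxed (T3) than in Floxed (Veh), with a median log2 ratio of -0.53. Tsc22d3, a classic glucocorticoid target, was at 92.85 and 44.6 FPKM, and 119 in the labelled ATRβKO (T3) library. Pdk4, which is also a target of other nuclear receptors, was at 33.2, 93.9 and 38.1 FPKM. None of 9 temperature response genes was called, with a median of -0.25, nor any of the 10 immediate early genes that reached 1 FPKM, with a median of -0.41. The part of these signals in the clock gene values was not tested.

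**Figure D4:**
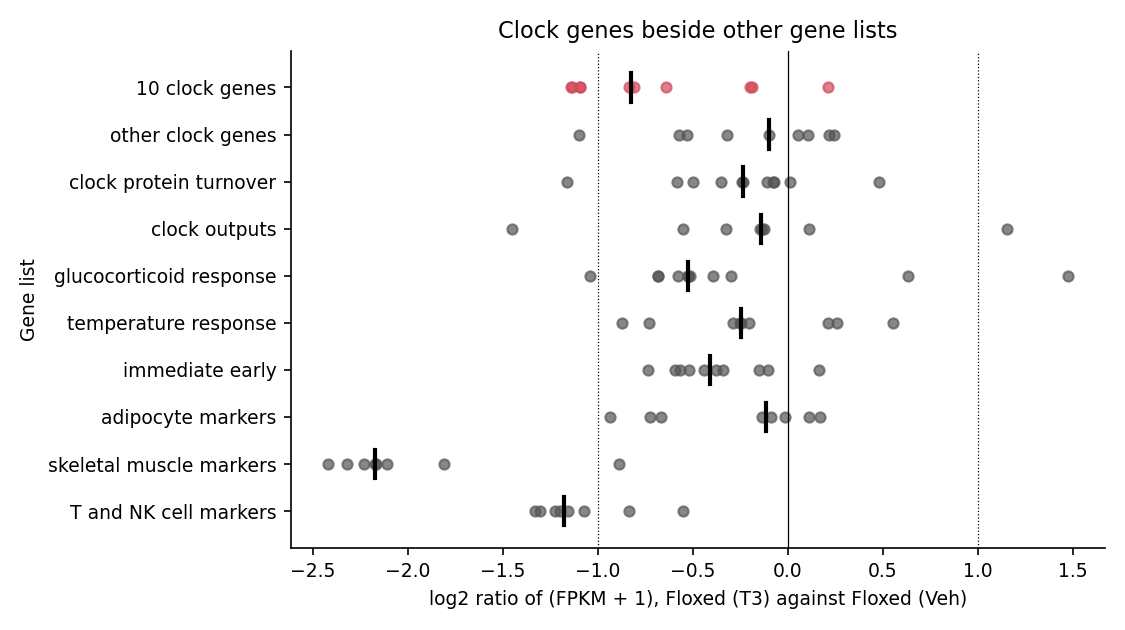
The log2 ratio of FPKM plus 1 in Floxed (T3) against Floxed (Veh) (horizontal axis) for the 10 clock genes and 9 other gene lists (vertical axis), for genes whose larger value was 1 FPKM or above. Points are genes, black ticks are medians and dotted lines mark the 2-fold rule. The clock genes have a median of -0.82, skeletal muscle markers of -2.17 and T and NK cell markers of -1.18.

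Summed levels of some cell type markers, like levels of several clock genes, were lowest in Floxed (T3) within the T3 table. Floxed (T3) was also the lowest of the 3 libraries for 61.8% of 15439 genes. The order of Floxed (Veh) and the labelled ATRβKO (T3) library differed between the marker lists. The summed level of 8 skeletal muscle markers was 2133 FPKM in Floxed (Veh), 462 in Floxed (T3), 2120 in the labelled ATRβKO (T3) library and 9132 in Floxed (HFD). By the size rule 7 of 8 were lower in Floxed (T3) than in Floxed (Veh), against 3.98% of all genes. Relative to Floxed (T3) all 8 were higher in the labelled ATRβKO (T3) library, against 4.04%. The 8 T and NK cell markers summed to 278, 125, 216 and 11.4 FPKM, with 6 of 8 lower in Floxed (T3). The 6 fibroblast markers summed to 1278, 761, 1483 and 1074, with 2 of 6 lower, both counts against the same 3.98%. No marker of these 3 lists was at 0. Floxed (T3) had the lowest of the 3 sums of the T3 table in each of these lists, as it had the lowest values of Dbp, Tef, Hlf and the Per genes, and the part of these marker levels in those values was not tested. In Floxed (HFD) the muscle sum was the highest of the 4. Of the 10 clock genes there, 3 were below all 3 libraries of the T3 table, 2 above and 5 between. The relation of that sum to these places was not tested. In bulk tissue, fewer cells of a type and less RNA per cell cannot be told apart. Adipocyte markers, which check the labelled tissue, were present in every library, with sums of 14855, 14904, 15224 and 30022 FPKM over 8 genes and none at 0. Fabp4 made up most of each sum, at 10033, 11288, 10682 and 20059 FPKM, so the sums hide differences of other markers. Within the T3 table Adipoq (1498, 781 and 1482 FPKM), Cidec (978, 616 and 1059) and Lep (232, 140 and 206) were lowest in Floxed (T3). The remaining adipocyte markers were not. Of the other lists, B cell and macrophage markers summed to 645 and 1322 FPKM in Floxed (Veh) against 444 and 933 in Floxed (T3), endothelial markers to 210 and 257, brown or beige fat markers to 186 and 699, and mammary epithelium markers to 1.58 and 1.28, with 2 of those 6 at 0 in both.

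Overlapping genes limit 3 of the values, since whether reads were assigned by strand is not given in the sources used here. In GENCODE M21 (build GRCm38, not that of the files), Nr1d1 shares 263 exonic bases of 3077 with Thra, the gene of thyroid hormone receptor α on the opposite strand. Thra was at 50.4 FPKM in Floxed (Veh), 32.7 in Floxed (T3), 41.55 in the labelled ATRβKO (T3) library and 88.5 in Floxed (HFD). Dbp shares 539 of 2993 exonic bases with Sphk2, which was at 9.04, 8.19, 9.51 and 10.5 FPKM, well under the level of Dbp in each library. Tef shares 193 of 7867 with Gm17597, at 1.29 FPKM or less.

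The genes most like Dbp in the T3 table were named from 10896 genes at 5 FPKM or more in a library, by the distance of their log2 ratios to Floxed (Veh). The 5 nearest were Apol7c (31.35, 13.7 and 23.2 FPKM in Floxed (Veh), Floxed (T3) and the labelled ATRβKO (T3) library), Celsr2, Ncmap, Trbv19 and Slc2a3, at distances of 0.044 to 0.063. None is among the other clock genes listed above. Of the 10 clock genes 9 were compared, since Cry1 was under 5 FPKM in every library of the table. Per3 was the nearest to Dbp, at 0.067, with 7 genes nearer than it, followed by Per1 at 0.25 with 120 nearer. Likeness over 3 libraries rests on only a pair of ratios, and many genes share it.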

How the data were processed

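Paired reads of TruSeq libraries were sequenced on a NovaSeq instrument, per the labels' protocols. HISAT2, StringTie and the build GRCm39 are named in the submitters' processing notes, without versions. The values deposited by the authors were taken as FPKM, which no header or label names. The unit was inferred from non-integer values, unequal library sums (748645 to 787969 in the T3 table, 757606 for Floxed (HFD)) and the naming of StringTie.

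Log2 ratios of FPKM plus a pseudocount of 1 were computed within the T3 table over genes whose larger value was 1 FPKM or above. Python 3.11.15 and pandas 2.3.3 were used. Calls needed 2-fold. The code was tested on simulated data with changes well past that limit, so the test does not bear on calls near it. The unit allowed no count test, and 1 library per group no test at all. The ATRβKO (HFD) library was left out of the comparisons. Alternatives were other pseudocounts, floors, fold limits and scalings, among them trimmed means of M values (TMM). The text names all 10 clock genes, all other clock genes, up to 3 called genes with the largest ratio of each further list, and the 5 genes nearest to Dbp, apart from 2 genes of the lists that are not reported here. Adipocyte markers are named in addition where their sum hides differences. Genes and lists were chosen with earlier results of these data known. Sequences came from RefSeq, GRCm38.p6.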

Additional observations from a re-analysis of the deposited data

Results flagged for a closer look

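The library labelled ATRβKO (HFD) was not used in the comparisons, and Clock and Cry1 stood at least 2-fold above Floxed (HFD) in it. Clock was at 45.8 FPKM against 7.10 in Floxed (HFD), and Cry1 at 61.9 FPKM against 3.59. Of 17711 genes compared by the 2-fold rule, 8447 were higher and 5660 lower in that library. Of the other 8 clock genes 6 were lower, with Tef at 2.05 against 74.4 FPKM and Per3 at 1.49 against 16.65. The summed FPKM of that library was 1891065, against 757606 for Floxed (HFD), so levels in it are not on a like scale. With 1 library per group these differences were not tested.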

How the results depend on the processing

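Of the 10 clock genes, the number lower in Floxed (T3) than in Floxed (Veh) was 4, against 3.98% of all genes. It became 1 with a pseudocount of 5 (0.93% of all genes), 0 with a median log2 ratio of 0 (2.36%), 0 with TMM (2.81%), 2 without the 50 most abundant genes (3.3%), 7 at 1.5-fold (14.0%) and 0 at 4-fold (0.57%). The number higher in the labelled ATRβKO (T3) library than in Floxed (T3) was 0, against 4.04%. It became 1 with a pseudocount of 0.1 (7.29%), 1 at a common total (4.75%), Hlf in both, and 6 at 1.5-fold (13.4%). Settings combined after the data were seen gave 2 at 1.5-fold with a median of 0 (7.89%) and 2 at 1.5-fold with TMM (7.91%), and for the first pair 6 lower (6.96%) and 5 lower (7.54%). For the labelled ATRβKO (T3) library against Floxed (Veh) it was 0 in both directions under all of these alternatives. The lower fold limit admits more genes and the higher one fewer, by construction. The 4 genes called lower lay between -1.14 and -1.09, close to the 2-fold limit. The log2 ratios of the first pair shifted by a median of 0.21 with a median of 0, 0.22 with TMM and 0.11 without the 50 most abundant genes. With a pseudocount of 5, which shrinks ratios of low values most, Hlf moved from -1.14 to -0.73. The difference of driven and opposite genes, Floxed (T3) minus Floxed (Veh), was -0.92, and it was -1.01 and -0.74 with pseudocounts of 0.1 and 5, -0.89 with a median of 0, -0.88 with TMM, -0.90 without the 50 most abundant genes, -0.94 at a common total, -0.88 with Nr1d1 and Dbp against Arntl alone and -1.02 without Nr1d1. The median level of the 10 genes in Floxed (HFD) was 19.2 FPKM, 18.1 without the 50 most abundant genes and 19.1 at a common total. No called gene changed sign. No paired analysis was possible because each group has 1 library, and for the same reason no library could be left out.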
